A study of Mus musculus with 88 samples.

Results

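The clustered protocadherin genes are the protein-coding genes whose symbols begin with Pcdha, Pcdhb or Pcdhg, which lie in 3 clusters on mouse chromosome 18. The rule found 57 genes, of which 14 belonged to the Pcdha cluster, 22 to the Pcdhb cluster and 21 to the Pcdhg cluster. They were read from a mesoderm table of 53697 genes, an endoderm table of 54393 genes and an embryoid body table of 26007 genes, and all 57 were listed in each table. In GRCm38 coordinates the Pcdha genes span bases 36930184 to 37187661 of the plus strand, the Pcdhb genes 37264938 to 37524479 and the Pcdhg genes 37661793 to 37841873. Pcdhgb8 was left out because the annotation calls it a polymorphic pseudogene.

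Clustered protocadherins are cell-surface adhesion proteins best known from neurons, where each cell uses a small set of them as an identity mark that lets its branches recognise and avoid one another. Each Pcdha and Pcdhg gene has its own promoter and variable first exon, which is spliced to constant exons shared by the whole cluster, while each Pcdhb gene is a single coding exon. Promoter choice is known to involve DNA methylation, CTCF, cohesin and the repressor SMCHD1, and the C-type genes at the end of the Pcdha and Pcdhg clusters (Pcdhac1, Pcdhac2, Pcdhgc3, Pcdhgc4 and Pcdhgc5) are chosen differently from the others. Polycomb repressive complex 2 (PRC2) places the repressive H3K27me3 mark, and MTF2 and JARID2 are accessory subunits that bring it to its targets.

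The directed series compared wild-type (WT) E14 mouse embryonic stem cells of 129/Ola background with Mtf2 null cells, which carry a gene trap, and with Jarid2 null cells. The paper names other wild-type lines, Pcl1-3 WT and JM8, as matched in background to the Mtf2 null and Jarid2 null cells. Genotype and line of origin therefore cannot be told apart in the directed series. Cells kept in serum with LIF (UD, undifferentiated) were driven for 5, 24 and 48 h toward mesoderm, first with Activin A, BMP4, CHIR99021 and FGF2 and then with A-83-01 and BMP4, or toward endoderm, first with Activin A, CHIR99021 and FGF2 and then with Activin A and DM3189. There were 2 libraries of ribosomal RNA-depleted RNA for each of the 3 genotypes and 4 times, which the reporting summary describes as technical duplicates, so p-values measure only the spread between libraries. The embryoid body series had 1 sample per line at days 0, 2, 4 and 7, where column names mark day 0 as mono and the later days as eb. Day 0 is thus read here as undifferentiated monolayer culture, although its label says embryoid bodies, and the later days as aggregates after LIF withdrawal, so culture format and time cannot be told apart between day 0 and the others. The series set lines labelled Mtf2 null, Jarid2 null and Eed null (EED is a core PRC2 subunit) against the wild-type lines Pcl1-3 WT, JM8 and J1.

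Directed libraries held 9111880 to 16898264 estimated counts (mesoderm) and 9889592 to 16372804 (endoderm). Mtf2 lay between 30.2 and 38.2 CPM (read counts scaled to a common library size, here with the trimmed mean of M-values, TMM) in Mtf2 null libraries and between 206 and 509 CPM in WT libraries. For Jarid2 the range was 189 to 622 CPM with the label Jarid2 null and 307 to 661 CPM with WT, so its transcript level did not separate those libraries from WT. In WT libraries the summed level of 7 endoderm markers stayed between 12.5 and 21.9 CPM at every time in both series, and at 48 h of the endoderm series Sox17 and Foxa2 had not risen. In bulk RNA, fewer cells of a type and less RNA per cell cannot be told apart.

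The 3 clusters stood at very different levels. In undifferentiated WT libraries the median Pcdhg gene had 1.13 CPM per kb of transcript in the mesoderm series and 1.06 CPM per kb in the endoderm series. The median Pcdhb gene had 0.0146 and 0.0132 CPM per kb, and the median Pcdha gene 0.0092 and 0.0044 CPM per kb. The 21 Pcdhg genes took ranks 1 to 21 of the 57 per length in both series, so the lowest Pcdhg gene lay above the highest Pcdha and Pcdhb gene. Pcdhgc3, the C-type gene also used widely outside neurons, ranked first with 2.03 and 2.38 CPM per kb, and Pcdhga12, named here after its values were seen, ranked second with 1.98 and 2.23 CPM per kb. The library ranges of these leading genes overlapped in both series, with 1.71 to 2.35 CPM per kb for Pcdhgc3 and 1.84 to 2.11 for Pcdhga12 in mesoderm, and 2.30 to 2.47 and 2.14 to 2.31 CPM per kb in endoderm.

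The counts behind these levels differed as much. A mesoderm library held 4 to 60 counts over all Pcdha genes, 16 to 69 over all Pcdhb genes and 759 to 2726 over all Pcdhg genes. The mean count per library was under 5 for 14 of 14 Pcdha genes and 20 of 22 Pcdhb genes in the mesoderm series, and for no Pcdhg gene. The filter on low counts kept all 21 Pcdhg genes, 2 Pcdhb genes (Pcdhb14 and Pcdhb22) and 1 Pcdha gene (Pcdha12) in the mesoderm series, and in the endoderm series also Pcdha7. Differences in the remaining 33 members of the mesoderm series and 32 of the endoderm series were not testable at this depth. Because Pcdhg genes share 2116 exon bases and Pcdha genes 2860, shared reads were divided between genes by estimation, and 5.17% of Pcdhg values above 0 were whole numbers in the mesoderm table against 63.4% of Pcdhb values. Values of single Pcdha and Pcdhg genes are therefore uncertain and depend on one another.

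**Figure D1:**
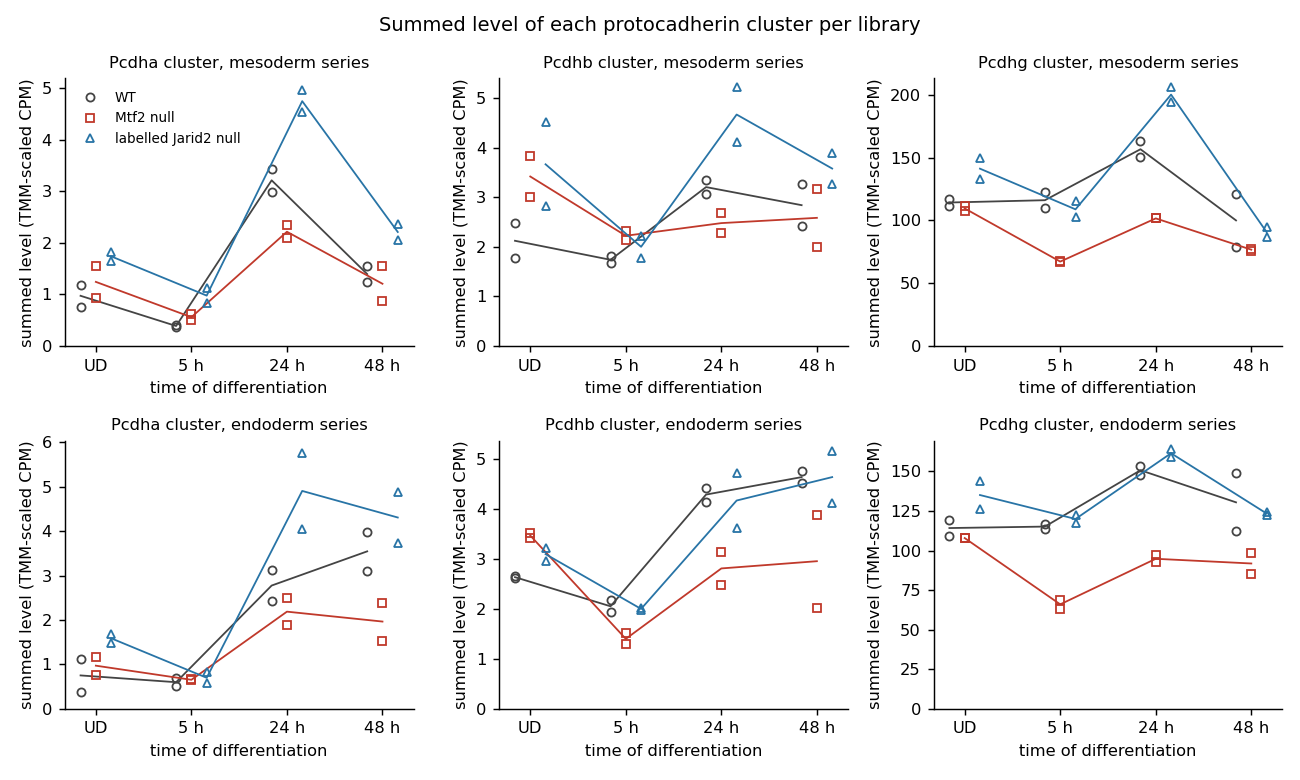
Summed level of the Pcdha, Pcdhb and Pcdhg genes (vertical axes, TMM-scaled CPM, each from 0) at 4 times of differentiation (horizontal axes) in the mesoderm (top) and endoderm (bottom) series. Each symbol is 1 library and lines join the means of 2 libraries; the Pcdhg sums of Mtf2 null libraries sit below those of WT at 5, 24 and 48 h, while Pcdha and Pcdhb sums stay under 6 CPM.

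In WT cells the Pcdhg genes were already expressed before differentiation and had their highest mean at 24 h. The summed Pcdhg level in WT libraries of the mesoderm series was 111 and 117 CPM undifferentiated, 110 and 122 at 5 h, 150 and 163 at 24 h, and 78.8 and 121 at 48 h. The 24 h libraries lay above those of the other times, and the 48 h pair was the most widely spread. Endoderm means were 114, 115, 151 and 130 CPM in the same order, and the 24 h libraries (154 and 148 CPM) overlapped those at 48 h (112 and 149 CPM). The Pcdha sum in WT libraries of the mesoderm series was 0.767 and 1.18 CPM undifferentiated, 0.361 and 0.418 CPM at 5 h, 2.99 and 3.43 CPM at 24 h and 1.24 and 1.55 CPM at 48 h. Endoderm WT libraries had 0.379 and 1.12 CPM, then 0.695 and 0.503, then 3.12 and 2.43, and 3.98 and 3.11 CPM at 48 h. The Pcdha sum at 24 h and at 48 h was thus above UD without overlap in both series. Of the Pcdha genes tested at 48 h against UD, Pcdha12 rose in endoderm at the looser limit of adjusted p under 0.05 by edgeR (log2 fold change 2.98 ± 0.95, adjusted p = 0.0183, beside 19.9% of all genes higher), Pcdha7 had 4.84 ± 2.13 there (adjusted p = 0.0879), and Pcdha12 had 1.2 ± 1.01 in mesoderm (adjusted p = 0.387). The times before 48 h were not tested against UD, and the Pcdha sums rest on few counts.

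Pcdhgc3 made up the larger part of the difference between UD and 24 h in WT. In the mesoderm series it had 11.0 and 8.01 CPM undifferentiated, 27.8 and 30.6 CPM at 5 h, 40.3 and 44.1 CPM at 24 h, and 8.76 and 13.8 CPM at 48 h in WT libraries. Endoderm WT libraries had 11.6 and 10.8 CPM, then 21.1 and 21.3, then 36 and 31.6, and finally 11.2 and 10.8 CPM. The gene thus stood high at 5 and 24 h and near its undifferentiated level at 48 h, without overlap between the 24 h and UD libraries. At 48 h against UD its log2 fold change was 0.24 ± 0.19 (adjusted p = 0.360) and -0.02 ± 0.16 (adjusted p = 0.942). Its share of the Pcdhg sum in WT went from a mean of 8.37% undifferentiated to 26.9% at 24 h and 11.2% at 48 h in the mesoderm series, and from 9.81% to 22.4% and 8.62% in the endoderm series.

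At 48 h against UD in WT, 2 of 24 tested members were called in the mesoderm series, beside 8.64% of all genes tested (called by edgeR's quasi-likelihood test where the p adjusted after Benjamini-Hochberg was under 0.001 and the log2 fold change exceeded 1 in size). This count is near the share of all genes. Pcdhgc4, a C-type gene, was lower by a log2 fold change of -2.05 ± 0.43 (SE) with adjusted p = 0.000856, and Pcdhga12 by -1.5 ± 0.23 with adjusted p = 4.28e-05. Endoderm WT libraries gave 3 called of 25 tested members beside 8.15% of all genes: Pcdhga12 was lower (log2 fold change -1.55 ± 0.22), and Pcdhga1 (1.34 ± 0.24) and Pcdhga8 (1.18 ± 0.19) were higher. Pcdhgc4 had 4.73 and 4.69 CPM undifferentiated and 1.11 and 1.14 CPM at 48 h in the mesoderm series. Endoderm libraries had 1.89 and 3.65 CPM and then 0.780 and 0.848 CPM (log2 fold change -1.76 ± 0.53, adjusted p = 0.0135, not called). Its libraries did not overlap between the times in either series. Leaving out the first 48 h WT library of the mesoderm series left 0 calls, leaving out either UD library left 1, and leaving out the second endoderm 48 h library or the second UD library left 1, or the first UD library 2.

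Many Pcdhg A and B genes were lower in Mtf2 null than in WT libraries from 5 h on. The summed Pcdhg level of Mtf2 null libraries was 95.9% of the WT mean undifferentiated, 57.9% at 5 h, 64.9% at 24 h and 76.7% at 48 h in the mesoderm series, and 94.5%, 57.3%, 62.9% and 70.4% in the endoderm series. Over the A and B genes alone, the 5, 24 and 48 h values were 53.5%, 50.6% and 55.9% of WT in the mesoderm series and 50.1%, 51.1% and 50.5% in the endoderm series. In all 6 of these settings both null libraries lay below both WT libraries. Undifferentiated A and B sums were below WT without overlap too, by less. They were 84.4 to 90.7 CPM against 92.2 to 101 CPM in mesoderm and 86.7 to 89.5 CPM against 92.7 to 102 CPM in endoderm. In the 8 comparisons of Mtf2 null with WT (4 times in 2 series), 13 members were called at least once, 12 of them lower and 1 higher. A negative log2 fold change in all 8 was found for 11 Pcdhg genes. The share of all genes was not computed for these pooled counts, which therefore only describe the members. In single comparisons 5.72% to 11.1% of all genes were called.

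Mesoderm calls were few. At 5 h, Pcdhgb4 (log2 fold change -2.03 ± 0.35, adjusted p = 0.000171) and Pcdhgb7 (-1.84 ± 0.33, adjusted p = 0.000241) were lower, 2 of 24 tested members beside 7.56% of all genes called. At 24 h Pcdhga9 was lower (-1.59 ± 0.31), beside 5.72% of all genes. At 48 h Pcdhga8 was lower (-1.03 ± 0.20) and Pcdhgc3 higher (1.17 ± 0.17), beside 6.82% of all genes. These counts are near the share of all genes called.

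At the looser limit, adjusted p under 0.05 with no fold limit, more members were lower than the share of all genes. In the mesoderm series 14 of 21 Pcdhg genes were lower and 0 higher at 5 h, where 14.7% of all genes were lower. At 24 h 12 were lower and 0 higher beside 11.7% of all genes, and at 48 h 9 were lower and 1 higher beside 12.7% and 15.2%. The median Pcdhg log2 fold change was -0.88 at 5 h, -1.0 at 24 h and -0.84 at 48 h, where the median of all genes lay between -0.01 and 0.01. Both null libraries were below both WT libraries for 17, 19 and 12 of 21 Pcdhg genes at 5, 24 and 48 h, beside 33.3%, 32.9% and 29.6% of all genes.

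The endoderm series gave more calls. At 5 h, 4 members were lower beside 7.61% of all genes: Pcdhga6 (log2 fold change -2.93 ± 0.57), Pcdhga10 (-1.72 ± 0.32), Pcdhgb7 (-1.63 ± 0.32) and Pcdhga9 (-1.44 ± 0.30). At 24 h, 6 were lower beside 6.58% of all genes, with Pcdhga10 (-1.68 ± 0.28), Pcdhga3 (-1.63 ± 0.30) and Pcdhgb6 (-1.61 ± 0.27) the furthest, followed by Pcdhga9, Pcdhga4 and Pcdhga7. At 48 h, beside 10.5% of all genes, 5 were lower, Pcdhga1 (-2.17 ± 0.25), Pcdhgb5 (-1.53 ± 0.22), Pcdhga9 (-1.45 ± 0.26), Pcdhga8 (-1.17 ± 0.19) and Pcdhgb4 (-1.13 ± 0.24), and Pcdhgc3 was higher. The counts of 4, 6 and 6 of 25 members tested lie above the share of all genes. At adjusted p under 0.05, 16, 12 and 12 Pcdhg genes were lower at 5, 24 and 48 h, beside 15.3%, 12.4% and 17.5% of all genes, and only Pcdhgc3, at 48 h, was higher, beside 20.4% of all genes. Both null libraries were below both WT libraries for 20, 19 and 14 Pcdhg genes, beside 34.5%, 31.4% and 32.6% of all genes.

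Many of these single-gene calls were lost when 1 library was left out. In the mesoderm series leaving out the second WT library at 5 h, or any library at 24 h other than the first WT one, left 0 calls, and leaving out any other 5 h library left 1. At 48 h leaving out the first null library left 0 and leaving out the second null or second WT library left 1. In the endoderm series leaving out the second null library at 5 h left 2 calls and any other left 0, and at 24 h leaving out the first or second WT library left 2 or 3 and the first or second null library 1 or 0. At 48 h leaving out the second WT library left 3. With only the groups compared in the fit, the counts at 5, 24 and 48 h were 0, 0 and 0 in the mesoderm series and 0, 2 and 2 in the endoderm series.

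**Figure D2:**
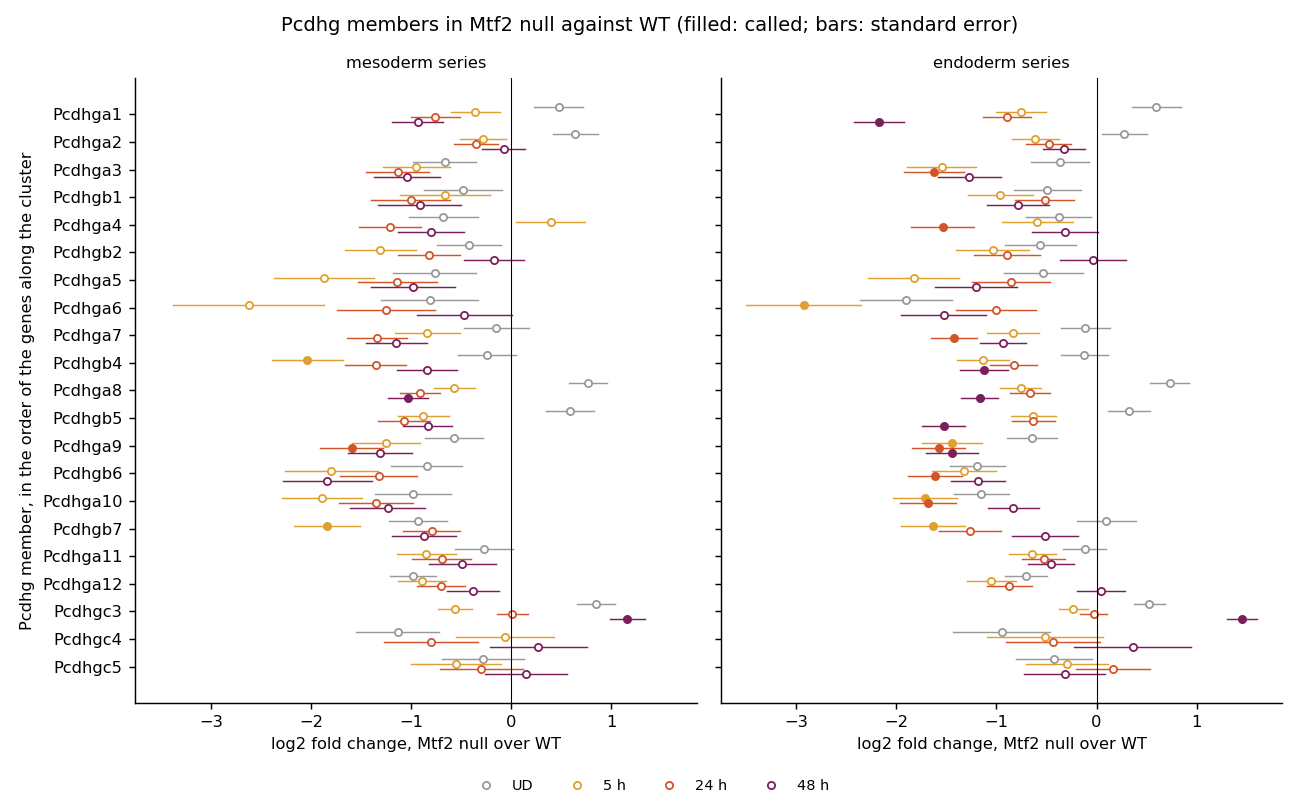
Log2 fold change of Mtf2 null over WT (horizontal axis) for the 21 Pcdhg genes in their order along the cluster (vertical axis) at 4 times, coloured by time, in both directed series. Points are fitted values, bars 1 standard error, and filled points are called; A and B genes lie mostly left of 0 at 5, 24 and 48 h, and Pcdhgc3 lies at 1.17 and 1.45 at 48 h.

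Pcdhga10, an A-type adhesion gene, shows the lower A and B levels in the single libraries. In the mesoderm series WT libraries had 5.22 and 5.54 CPM undifferentiated, 4.79 and 6.69 at 5 h, 6.96 and 5.54 at 24 h, and 4.71 and 5.63 CPM at 48 h. The Mtf2 null libraries had 3.45 and 1.97 CPM, then 1.33 and 1.71, then 2.28 and 2.59, and 1.64 and 2.69 CPM. Endoderm WT libraries ranged from 4.17 to 8.01 CPM over all times and Mtf2 null from 0.661 to 4.12 CPM. At each time in each series both null libraries were below both WT libraries.

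Pcdhgb6, a B-type gene, was lower in the same manner. Its WT libraries in the endoderm series had 5.02 and 4.87 CPM undifferentiated, 2.78 and 2.85 at 5 h, 5.01 and 5.43 at 24 h, and 4.59 and 4.14 CPM at 48 h. Its Mtf2 null libraries had 2.01 and 2.31 CPM, then 0.661 and 1.57, then 1.75 and 1.66, and 2.24 and 1.61 CPM. The null libraries were below WT without overlap at every time, although only the 24 h difference passed the called limit.

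Pcdhga8 and Pcdhgb5, the A and B genes with the highest WT means, crossed over during differentiation. In undifferentiated cells of the mesoderm series Pcdhga8 had 8.38 and 10.3 CPM in WT and 16.6 and 15.2 CPM in Mtf2 null. At 48 h it had 8.50 and 13.9 CPM in WT and 5.00 and 5.86 CPM in Mtf2 null. The null libraries were thus above WT before differentiation and below it at 48 h. Endoderm libraries gave Pcdhga8 7.86 and 7.59 CPM in undifferentiated WT against 14.1 and 11.5 CPM in Mtf2 null, and at 48 h 14.6 and 20.3 CPM against 7.78 and 7.75 CPM.

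The test of that change, the Mtf2 null difference at 48 h minus that at UD, called Pcdhga8 in the mesoderm series (-1.80 ± 0.28 on the log2 scale, adjusted p = 0.000183, beside 2.71% of all genes). The endoderm test called Pcdhga1 (-2.77 ± 0.35, adjusted p = 8.25e-06), Pcdhga8 (-1.90 ± 0.27, adjusted p = 3.15e-05) and Pcdhgb5 (-1.85 ± 0.30, adjusted p = 0.000130), beside 5.24% of all genes. Pcdhgb5 had 8.90 and 8.99 CPM in undifferentiated WT and 12.0 and 10.4 CPM in Mtf2 null, and at 48 h 10.0 and 16.5 CPM against 4.49 and 4.68 CPM. The mesoderm call was lost without the first 48 h null library, the first UD null library or the first UD WT library, which each left 0 members, and leaving out the first 48 h WT library left 2. In the endoderm series 2 or 3 members remained called in number under every omission, with 2 where the first 48 h null, the first UD null or the second 48 h WT library was left out.

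Pcdhgc3 went the other way. At 48 h it had 8.76 and 13.8 CPM in WT and 27.6 and 22.6 CPM in Mtf2 null libraries of the mesoderm series. Endoderm values were 11.2 and 10.8 CPM in WT and 32.7 and 27.7 CPM in Mtf2 null. The log2 fold change was 1.17 ± 0.17 (adjusted p = 3.64e-05) in mesoderm and 1.45 ± 0.15 (adjusted p = 9.12e-08) in endoderm, and the null libraries were above WT without overlap in both. The mesoderm call was lost without the first 48 h Mtf2 null library (log2 fold change 1.01) and without the first 48 h WT library (0.86), and with only the groups compared in the fit (1.13).

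At 24 h, when Pcdhgc3 was highest in WT, it did not differ detectably: the null libraries had 44.1 and 41.3 CPM in the mesoderm series and 33.8 and 32.4 CPM in the endoderm series, with log2 fold changes of 0.01 ± 0.16 and -0.03 ± 0.13. At 5 h the fold change was -0.56 ± 0.17 (adjusted p = 0.0155) and -0.23 ± 0.14 (adjusted p = 0.246), so Pcdhgc3 was not called higher in the null at 5 or 24 h. In the null its share of the Pcdhg sum was 32.7% and 32.9% at 48 h, beside 11.2% and 8.62% in WT. The other C-type genes of the cluster, Pcdhgc4 and Pcdhgc5, were called in none of the 8 comparisons by edgeR. At 48 h their log2 fold changes were 0.27 ± 0.48 and 0.15 ± 0.41 in mesoderm and 0.36 ± 0.58 and -0.32 ± 0.40 in endoderm.

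**Figure D3:**
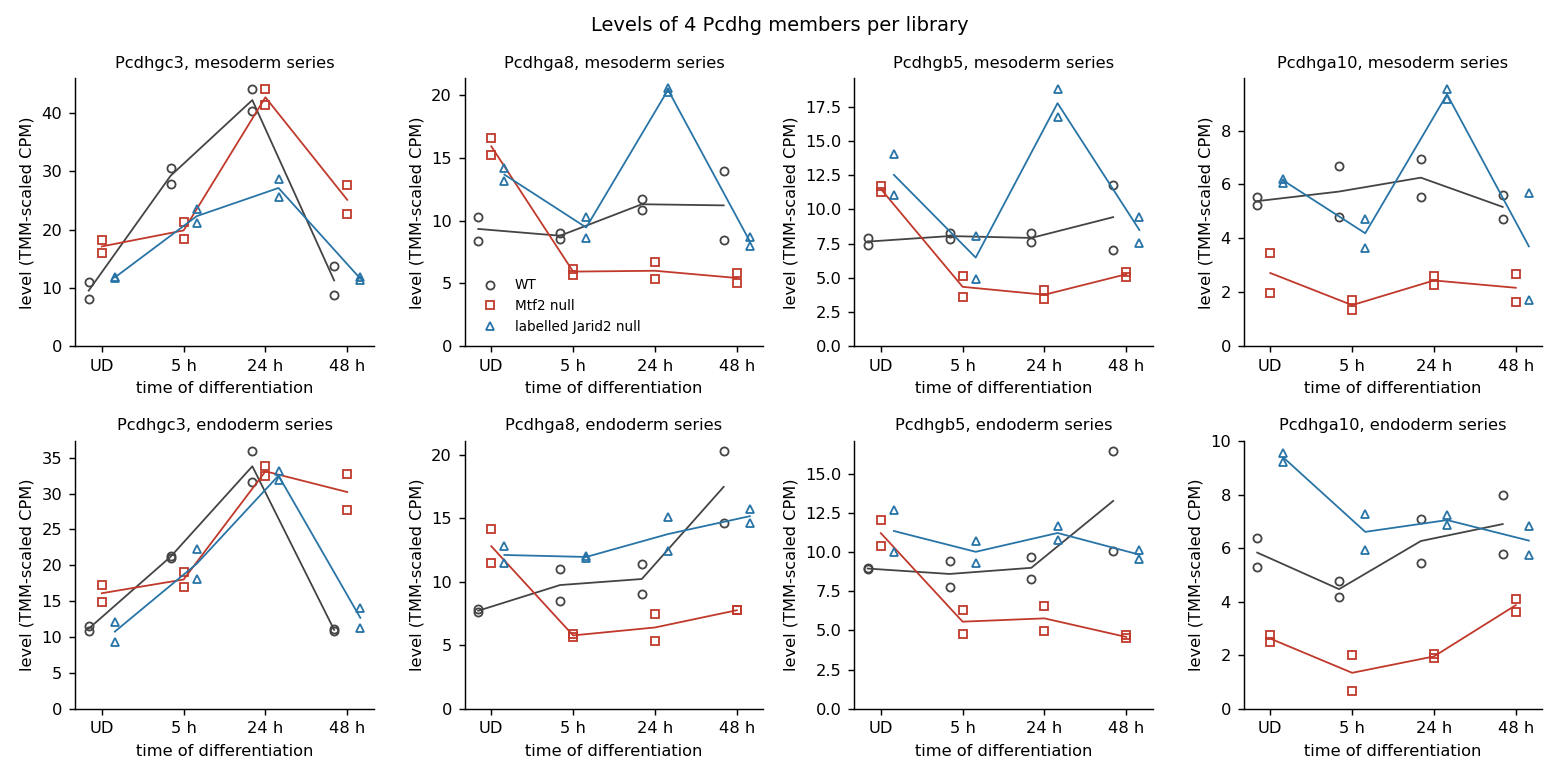
Levels of Pcdhgc3, Pcdhga8, Pcdhgb5 and Pcdhga10 (vertical axes, TMM-scaled CPM, from 0) at 4 times of differentiation (horizontal axes) in both directed series. Each symbol is 1 library and lines join the means of 2; Pcdhgc3 in Mtf2 null stays at 22.6 to 32.7 CPM at 48 h where WT is at 8.76 to 13.8 CPM, and the other 3 genes are lower in Mtf2 null at 48 h.

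In undifferentiated cells alone the picture was mixed. Neither series called a member in Mtf2 null against WT by edgeR, beside 11.1% and 11.0% of all genes called. Of the members tested, 10 of 24 and 8 of 25 had an unadjusted p under 0.05, and DESeq2 called 0 in each. The share of all genes at that unadjusted limit is not given here. Even at adjusted p under 0.05, 39.2% and 40.6% of all genes passed, so these member counts show no excess. Leaving out the first WT library gave 1 call in each series. With the 12 undifferentiated libraries of both series in 1 fit, 4 per genotype, Pcdhga10 (-1.06 ± 0.20, adjusted p = 0.000333) and Pcdhgb6 (-1.01 ± 0.20, adjusted p = 0.000536) were called, 2 of 23 members beside 14.7% of all genes. At adjusted p under 0.05 there were 7 members lower and 5 higher, beside 26% and 28.5% of all genes, and those higher included Pcdhga8 (0.75 ± 0.11) and Pcdhgc3 (0.69 ± 0.12). Leaving out the second null library of the mesoderm series, the second WT library or either null library of the endoderm series left 0 calls, and leaving out the first null library of the mesoderm series or the first WT library of the endoderm series left 1.

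The 4 libraries per genotype may not be independent. The difference between the first and the second undifferentiated library was correlated across 11399 genes between the series, with r = 0.387 in WT, 0.405 in Mtf2 null and 0.554 in the labelled Jarid2 null, and between -0.316 and 0.323 for unlike genotypes; genes are not independent replicates. Same-numbered libraries still differed beyond sampling noise (chi-square per gene 5.93 to 22.9). With same-numbered libraries of both series summed, 2 per genotype, a fit chosen after the data were seen, 0 of 23 members were called by edgeR and 11 had an unadjusted p under 0.05. In it Pcdhga10 had -1.02 ± 0.24 (adjusted p = 0.00371) and Pcdhgb6 -0.97 ± 0.24 (adjusted p = 0.00547), and 4 members were lower and 4 higher at adjusted p under 0.05. The shares of all genes are not given for this fit, so its counts only describe the members.

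Markers of other lineages moved with the Mtf2 null libraries. The summed endoderm marker level was 12.5 to 21.9 CPM in WT libraries and 36.2 to 247 CPM in Mtf2 null libraries of both series. Of the 7 markers, 6 were tested, and Gata6, Gata4, Sox17 and Foxa2 rose undifferentiated and at 48 h in both series, joined at 48 h in endoderm by Hhex, while Cxcr4 was not called. The mesoderm marker Pdgfra was higher in all 8 comparisons, and the pluripotency marker Zfp42 lower in all 8. The lists as a whole did not always follow these genes. The mesoderm marker sum was below WT at 24 h in both series (endoderm 21.9 and 22.3 against 40.4 and 36.8 CPM). It was above WT at the other times. The pluripotency marker sum was above WT undifferentiated in both series (mesoderm 3658 and 3620 against 2942 and 2356 CPM). It was also above WT at 48 h in endoderm and below WT in the other comparisons. Of 11 neural markers, Tubb3 and Sox1 were lower and Elavl3, Stmn2, Map2 and Nes higher in at least 1 comparison. Their part in the Pcdhg differences was not tested.

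Among 15 regulators of the clusters, the DNA methyltransferase gene Dnmt3b was higher in Mtf2 null at 5 and 24 h in both series and at 48 h in mesoderm, with log2 fold changes from 1.13 to 1.51. The methyltransferase gene Dnmt3a was lower in undifferentiated cells (-1.26 ± 0.11 in the mesoderm series) and at 48 h in endoderm (-1.33 ± 0.12), and Wiz, a zinc finger gene, was higher in undifferentiated cells (1.08 ± 0.11 in the mesoderm series). The genes for CTCF, the cohesin subunits and SMCHD1 were not called in any of the 8 comparisons. The part of these genes in the Pcdhg differences was not tested.

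Of 12 genes that flank the clusters, 1 was called in Mtf2 null against WT: Dnd1, an RNA-binding germ cell gene, was lower in undifferentiated cells of both series and at 48 h in mesoderm. The summed level of these neighbours in undifferentiated cells was 518 and 495 CPM in WT and 422 and 435 CPM in Mtf2 null of the mesoderm series. Endoderm libraries had 495 and 476 CPM in WT and 411 and 430 CPM in Mtf2 null. The undifferentiated null libraries were thus below WT without overlap in both series. At 5 and 24 h the null libraries lay above WT without overlap in both series. In mesoderm at 5 h they had 597 and 600 CPM against 588 and 576 CPM in WT. At 48 h the neighbour sum was above WT in mesoderm (526 and 525 against 490 and 487 CPM) and overlapped WT in endoderm. Of 4 tested non-clustered protocadherins, Pcdh19 was higher at 48 h in endoderm and Pcdh1 and the other tested ones were not called. Among the classical cadherins, Cdh1 (E-cadherin), Cdh4, Cdh5 and Cdh6 were each higher in at least 1 comparison and none was lower. Of the 6 genes for protocadherin processing and signalling, Psen2 and the kinase gene Ptk2b were higher in undifferentiated cells, Ptk2b also at 5 h, and the sheddase gene Adam10 at 48 h in endoderm.

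The libraries labelled Jarid2 null gave no member calls by edgeR in any of the 8 comparisons by the limit used for Mtf2 null. The share of all genes called at UD, 5, 24 and 48 h was 0.37%, 0%, 1.97% and 0.169% in mesoderm and 0.742%, 0.0363%, 0.0312% and 0.125% in endoderm. In the mesoderm series 3, 1, 10 and 2 of 24 members had an unadjusted p under 0.05 at UD, 5, 24 and 48 h, and in the endoderm series 2, 1, 2 and 2 of 25. The share of all genes at that unadjusted limit is not given here. At adjusted p under 0.05 it was 6.62%, 0.212%, 23.2% and 2.21% in mesoderm and 9.32%, 0.151%, 0.332% and 7.22% in endoderm. DESeq2 called 1 member, at 24 h of the mesoderm series, and 0 in the other 7. At that time, at adjusted p under 0.05, 6 members were higher and 1 lower, beside 8.12% and 15.1% of all genes.

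Those higher at 24 h in mesoderm were led by the single-exon gene Pcdhb22 (1.69 ± 0.49, adjusted p = 0.0166) and by Pcdhgb5 (1.17 ± 0.23, adjusted p = 0.00128), and the one lower was Pcdhgc3 (-0.64 ± 0.16, adjusted p = 0.00707). Pcdhgb5 had 7.59 and 8.24 CPM in WT and 18.8 and 16.7 CPM in the labelled Jarid2 null. Pcdhgc3 had 40.3 and 44.1 CPM in WT and 25.6 and 28.7 CPM in the labelled Jarid2 null. Neither gene's libraries overlapped between the genotypes. Pcdhb22 had 0.994 and 0.438 CPM in WT and 2.65 and 1.87 CPM in the labelled Jarid2 null, again without overlap. In the endoderm series at 24 h Pcdhgb5 (0.32 ± 0.20) and Pcdhgc3 (-0.06 ± 0.13) did not pass either limit. With all 12 undifferentiated libraries in 1 fit, 0 members were called beside 1.15% of all genes, and 5 of 23 had an unadjusted p under 0.05. At adjusted p under 0.05 Pcdhga8 (0.57 ± 0.11) and Pcdhgb5 (0.50 ± 0.13) were higher, beside 11.3% of all genes. With same-numbered libraries summed, 0 passed that adjusted limit and 3 had an unadjusted p under 0.05. The share of all genes at the unadjusted limit is not given here for either fit. The Mtf2 null and labelled Jarid2 null comparisons share their WT libraries, and the difference between the 2 genotypes was not tested.

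The Pcdha and Pcdhb sums were low in every directed group. The highest library of any genotype had 5.76 CPM over all Pcdha genes and 5.22 CPM over all Pcdhb genes. The mean Pcdha sum of the labelled Jarid2 null was above WT at every time, with log2 ratios of 0.563 to 1.33 in mesoderm and 0.222 to 1.08 in endoderm. Libraries did not overlap at any mesoderm time or at UD and 24 h in endoderm, and overlapped at 5 and 48 h in endoderm. For Mtf2 null the ratios ran from -0.536 to 0.524 and from -0.852 to 0.370. These sums rest on few counts and their differences were not tested. Pcdhac2, a C-type gene, lay between 0 and 0.753 CPM in all directed libraries and the other C-type gene Pcdhac1 between 0 and 0.562 CPM. Pcdha7 and Pcdha12, among the Pcdha genes with the highest WT means, reached at most 1.48 and 1.41 CPM. Pcdhb14 lay between 0.0723 and 1.35 CPM, and Pcdhb22, the Pcdhb gene with the highest WT mean, between 0.184 and 2.65 CPM. None of the tested Pcdha and Pcdhb genes was called by edgeR in any directed comparison.

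In the embryoid body series the day 7 sums over the day 0 sums lay between 0.785-fold (Pcdhg in Pcl1-3 WT) and 42.6-fold (Pcdha in J1). The day 0 sum behind the 42.6-fold rests on 2 reads, all of Pcdhac2, in a sample without a duplicate column, so that fold is very uncertain. The targeted genes did not check the labels clearly. At day 0 Mtf2 had 324 CPM in the sample labelled Mtf2 null, 413 CPM in Pcl1-3 WT and 129 CPM in the sample labelled Jarid2 null. Jarid2 and Eed were not lower in the samples labelled for them at day 0 (603 CPM against 507 CPM in JM8, and 109 CPM against 103 CPM in J1). All statements on embryoid bodies therefore follow the labels. Over 3 WT lines at day 7 against day 0, 9 members were higher and 0 lower (limma, Benjamini-Hochberg adjusted p under 0.05), beside 25% of all genes called and 12.9% higher. All 9 were Pcdhg A or B genes, led by Pcdhgb6 (2.76 ± 0.81 on the log2 scale, adjusted p = 0.0343) and Pcdhga6 (2.60 ± 0.54, adjusted p = 0.0105).

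The WT lines did not move together. The summed Pcdhg level went from 58.7 CPM at day 0 to 323 CPM at day 7 in J1, from 71.9 to 191 CPM in JM8 and from 63.1 to 49.5 CPM in Pcl1-3 WT. J1 and JM8 were higher at day 7 and Pcl1-3 WT was not. Leaving out Pcl1-3 WT gave 18 members called, and leaving out JM8 or J1 gave 0. At day 7 the 7 pluripotency markers still summed to 1915 CPM in Pcl1-3 WT, beside 1013 CPM in JM8 and 221 CPM in J1. The part of this in the Pcdhg levels was not tested.

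The Pcdha and Pcdhb clusters were higher at day 7 than at day 0 by more in 5 lines than in Pcl1-3 WT. The Pcdha sum went from 0.343 CPM at day 0 (2 reads) to 14.6 CPM at day 7 in J1, from 1.15 to 4.5 CPM in JM8 and from 1.00 to 1.27 CPM in Pcl1-3 WT. In the lines labelled Mtf2 null, Jarid2 null and Eed null it went from 1.13 to 6.45, from 1.77 to 17.4 and from 2.04 to 10.0 CPM. Pcl1-3 WT was lowest of the 6 lines at day 7, though not at day 0.

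The Pcdhb sum behaved alike, with 22.3, 5.23 and 1.47 CPM at day 7 in J1, JM8 and Pcl1-3 WT and 16.1, 30.4 and 35.6 CPM in the lines labelled Mtf2 null, Jarid2 null and Eed null. A single sample, in most cases the mean of its duplicate columns, stood behind each value. Pcdhac2 made up the larger part of the Pcdha sum at day 7 in every line but Pcl1-3 WT. It had 12.4 CPM in J1, 3.74 in JM8 and 0.559 CPM in Pcl1-3 WT at day 7, and 5.79, 13.3 and 8.28 CPM in the lines labelled Mtf2 null, Jarid2 null and Eed null. Pcdhb22 had 7.70, 1.61 and 0.615 CPM in the WT lines and 7.08, 11.0 and 13.1 CPM in the labelled null lines. Neither passed the test over the 3 WT lines (Pcdhac2 2.08 ± 0.77, adjusted p = 0.0726; Pcdhb22 0.91 ± 0.62, adjusted p = 0.294). The neural markers, 11 genes, summed to 56.4 to 240 CPM at day 7 and to 209 to 363 CPM at day 0, and were lower at day 7 than at day 0 in every line but that labelled Eed null.

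**Figure D4:**
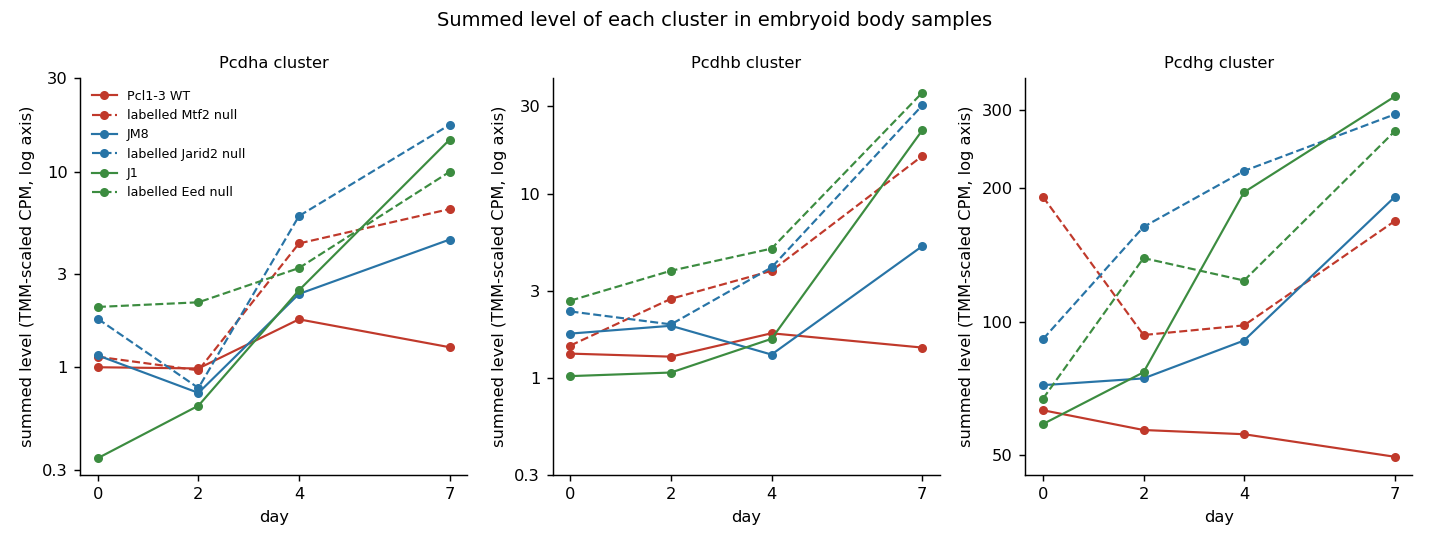
Summed level of the Pcdha, Pcdhb and Pcdhg genes (vertical axes, TMM-scaled CPM, log scale) by day (horizontal axes) in 6 embryoid body lines, 1 sample per point, with each labelled null line dashed in the colour of its WT line. All 3 sums are higher at day 7 than at day 0 in J1, JM8 and the lines labelled Jarid2 null and Eed null, and Pcl1-3 WT ends at 1.27, 1.47 and 49.5 CPM.

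Set against their own WT lines over 4 days, 2 of the 3 labelled nulls had Pcdhg genes called higher. In the line labelled Mtf2 null, 11 members were higher than in Pcl1-3 WT and 0 lower (limma with day as a block), beside 7.51% of all genes called and 4.83% higher. In the line labelled Jarid2 null, 10 were higher than in JM8 and 0 lower, beside 13.4% called and 6.55% higher. On all 4 days 18 of 21 Pcdhg genes were higher in each of these lines, beside 19.5% and 19.9% of all genes. In the line labelled Eed null 0 were called against J1, beside 8.74% of all genes, and edgeR on recovered reads called 0. An unadjusted p under 0.05 was found for 5 of 24 members, a limit for which the share of all genes is not given here. Of its 21 Pcdhg genes 15 had a positive and 6 a negative log2 fold change. Its A and B sum over that of J1 had log2 ratios of 0.773, 1.14, 0.0752 and -0.174 at days 0, 2, 4 and 7.

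Pcdhgb5 shows the size of these differences. It had 1.44, 0.620, 1.43 and 1.92 CPM in Pcl1-3 WT at days 0, 2, 4 and 7, and 9.93, 3.36, 4.09 and 8.93 CPM in the line labelled Mtf2 null. The log2 fold change was 1.93 ± 0.33 (adjusted p = 0.0205). In JM8 it had 1.21, 2.08, 2.71 and 6.30 CPM and in the line labelled Jarid2 null 4.28, 7.62, 9.33 and 13.9 CPM, with a log2 fold change of 1.5 ± 0.26 (adjusted p = 0.0161). Each labelled null sample was above its WT line on every day. The C-type genes were not called: Pcdhgc3 had fold changes of 0.78 ± 0.24 (adjusted p = 0.0879) and 0.47 ± 0.17 (adjusted p = 0.116), and Pcdhgc4 of -1.24 ± 0.31 (adjusted p = 0.0549) and -0.57 ± 0.63 (adjusted p = 0.576).

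Without day 0, where the labels are in doubt, 6 members were called in each comparison, and without day 2, 4 or 7 none was, with 3 days left per line. With no filter on low values 0 members were called in either, and without day as a block 1 and 0. In the same comparisons the endoderm markers Gata6, Gata4, Sox17 and Foxa2 and the mesoderm marker Pdgfra were higher in both labelled null lines. Their part was not tested. For Mtf2 null the directed series gave Pcdhg A and B genes below E14 WT at 5, 24 and 48 h, and the embryoid bodies gave the line so labelled above Pcl1-3 WT. The WT lines, the media and the times differ between the series, and the difference between them was not tested.

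**Figure D5:**
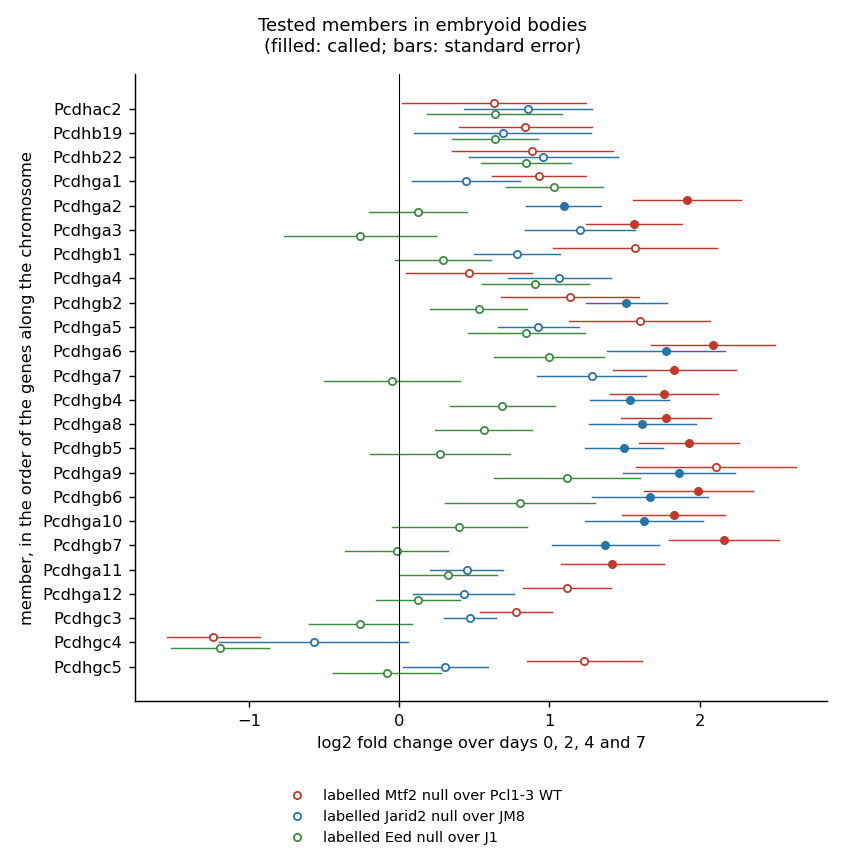
Log2 fold change over days 0, 2, 4 and 7 (horizontal axis) of each labelled null line over its WT line for the 24 tested members in their order along the chromosome (vertical axis). Points are fitted values, bars 1 standard error and filled points called; 11 genes are called for the line labelled Mtf2 null, 10 for that labelled Jarid2 null and 0 for that labelled Eed null, all of them Pcdhg A or B genes.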

How the data were processed

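RNA-seq libraries of mouse cells were measured in 48 directed and 24 embryoid body samples. The authors quantified reads with Salmon against GRCm38 and deposited estimated counts per gene for the directed series. For embryoid bodies the authors deposited counts divided by DESeq2 size factors, a normalised signal. The submitters' processing notes also name Bowtie2, HTSeq and CASAVA; versions are not given in the sources used here. Of 46 embryoid body columns, averaged per sample to 24, whole reads were recovered in 45 within a tolerance of 0.02. Embryoid body columns held 3005707 to 22944105 reads.

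Estimated counts were rounded and tested with edgeR 4.0.16 (quasi-likelihood, TMM, filterByExpr with a minimum count of 10, R 4.3.3) over all libraries of a series, leaving 18361 and 19261 genes, with thresholds from the study's methods. Embryoid bodies were tested with limma 3.58.1 on log2 CPM (prior count 2) of the deposited signal for the 15842 genes that reached 1 CPM in 4 or more samples. Most samples had 2 columns, mostly named r1 and r2, which were averaged. The reporting summary describes bulk RNA-seq as done with 2 technical replicates per condition. With 1 averaged value per line and day, only days or lines served as repeats. Adjusted p-values cover all genes tested. The SE given with edgeR values is the size of the log2 fold change over the square root of its F statistic. Single genes were given library values if highest in WT, called in undifferentiated cells or C-type. Members and gene lists were chosen with earlier results of these data known. DESeq2 1.42.0 and other settings were alternatives. In simulated data the mesoderm fit recovered 76% of 4-fold and 40% of 2-fold changes over 17120 genes and the endoderm fit 85% and 29% over 17987, each with 0 false calls; the embryoid body fit recovered 100% of 4-fold changes over 14918 genes with 8 false calls. The simulated directed data used only the UD and 48 h libraries and the same dispersion for every gene. Simulated embryoid bodies had independent noise and no day effect. A 2-fold change lies on the fold limit itself, which caps its recovery in advance. These shares therefore do not measure recovery in the real data, where duplicate libraries differed beyond sampling noise (chi-square per gene 2.52 to 20.5). 2 endoderm columns named 28h were mapped to 48 h by library number. Single-cell files were not used. A gene annotated a second time as Pcdha11 was taken as Pcdha10 by its RefSeq start.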

Additional observations from a re-analysis of the deposited data

Results flagged for a closer look

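In undifferentiated cells, 4 libraries per genotype across both series, 1 library stood far from the other 3 for 8 of 54 values examined, judged by its gap to the nearest library as a share of the whole range. Chance flags about 1 in 20 groups, if the 4 libraries are independent and their values normally distributed. Values of a few counts do not meet this, so the 8 of 54 cannot be set against that rate. For Pcdha6 and Pcdha7 in WT the gap was the whole range (1), since 3 libraries had 0 and 1 had 0.0943 and 0.0959 CPM, which is about 1 count. The gap was 0.838 for Pcdha7 in Mtf2 null (highest 0.517 CPM), 0.830 for Pcdhac1 in WT (highest 0.566 CPM), 0.881 for Pcdhb14 in Mtf2 null (lowest 0.724 CPM) and 0.861 for Pcdhb22 in the labelled Jarid2 null (lowest 0.643 CPM). It was 0.864 for the Pcdhb sum in WT (lowest 1.73 CPM) and 0.921 for Pcdhgc3 in WT, where 1 library had 8.20 CPM and the others 10.7 to 11.0 CPM.

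The difference between Mtf2 null and WT itself changed between undifferentiated cells and 48 h for 4 gene and series pairs by edgeR's test of the change. It was -1.80 on the log2 scale for Pcdhga8 in the mesoderm series, and -2.77 for Pcdhga1, -1.85 for Pcdhgb5 and -1.90 for Pcdhga8 in the endoderm series.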

How the results depend on the processing

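The 32 member calls of the directed series kept their direction in every alternative run, and 131 of 162 settings other than left-out libraries kept the call, as did 73 of 152 with 1 library left out. With adjusted p under 0.05 and no fold limit, Mtf2 null against WT gave 7, 14, 12 and 10 of 24 members in mesoderm at UD, 5, 24 and 48 h. Of all genes 39.2%, 28.7%, 22.8% and 27.9% passed. Endoderm gave 7, 16, 12 and 13 of 25, beside 40.6%, 31%, 26.2% and 38%. Both series undifferentiated gave 12 of 23, beside 54.5%. The labelled Jarid2 null gave 1 and 7 (mesoderm UD and 24 h, beside 6.62% and 23.2%), 1 and 1 (endoderm UD and 48 h, beside 9.32% and 7.22%) and 2 (both series, beside 20.4%). WT over time gave 5 and 8, beside 35.4% and 34.9%. The change of the Mtf2 null difference gave 3 and 5, beside 18.1% and 22%. The counts at UD, in both series, over time and for the change are thus not above the share of all genes. Shares of all genes are not given for the settings that follow, so their counts only describe the members. With no filter the members called were 6, 5 and 5 in mesoderm at 5, 24 and 48 h, 1 for Jarid2 at 24 h, 2 for the change, 1 and 8 in endoderm at UD and 5 h, and 4 in both series. With only the groups compared they were 0 in mesoderm for all 5 results with calls, and 0, 2 and 2 in endoderm at 5, 24 and 48 h. Summing same-numbered libraries, chosen after seeing the data, moved the Mtf2 null count in both series from 2 to 0. DESeq2 gave 1 for Jarid2 at 24 h, 1 for WT mesoderm over time and 2 for endoderm at 5 h. The replicate block moved the WT mesoderm count from 2 to 1 and no other beyond 1.5 times; same-numbered libraries correlated between -0.267 and 0.371, so the numbers were not taken as pairs.

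Leaving out 1 library gave 0 to 1, 0 to 1, 0 to 1 and 0 to 2 for Mtf2 null in mesoderm, 0 to 1, 0 to 2, 0 to 3 and 3 to 6 in endoderm, 0 to 2 in both series, 0 to 2 and 1 to 3 for WT over time and 0 to 2 and 2 to 3 for the change. A group left with 1 library is assumed to vary like the others.

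In embryoid bodies 115 of 180 settings kept a call, and 20 of 111 with a day or line left out. No filter gave 0, 0 and 3 members for the lines labelled Mtf2 null and Jarid2 null and for day 7; no block gave 1, 0 and 2; edgeR on recovered reads gave 6 for Jarid2; all 24 samples in one fit gave 1 for Eed and 18 for day 7. Leaving out a day or line gave 0 to 6, 0 to 6 and 0 to 18. Summing only tested members lowered the mean mesoderm Pcdha sum from 1.74 to 0.408 CPM and left Pcdhg at 115 CPM. The causes were not tested. Depth limits the Pcdha and Pcdhb genes, most with a mean under 5 counts.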
